A study of Mus musculus with 33 samples.

Results

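Binding of p53 was compared between B cell lymphomas with p53 function restored and the same tumours given solvent alone. The comparison used the 8 chromatin immunoprecipitation and sequencing (ChIP-seq) peak lists of the knock-in tumours, titled T1 to T4. There were 4 lists of cells treated with 4-hydroxytamoxifen (OHT) and 4 of cells treated with ethanol (EtOH), 8 of the 26 lists in the study. The OHT lists held 27521 peaks and the EtOH lists 1411, out of 102916 peaks in all lists. Tumours came from C57/Bl6 Eµ-myc mice, in which the Myc oncogene is expressed in B cells, and all 8 samples carried the genotype Trp53(KI/delta), a knock-in allele over a deleted one. OHT was given at 100 nM for 2 h, and EtOH, its solvent, at 1 volume per 1000 for 2 h. Each tumour contributed 1 OHT and 1 EtOH list, made with the p53 antibody CM5p. Cells were pressed from lymph nodes and not purified, so other cells of the node may be among them, and peak lists allow no check of cell identity. The other 18 lists came from Eµ-myc tumours 5 to 7 with both wild-type Trp53 alleles and no Arf. These had been given 1 µM doxorubicin or 5 µM (-)-Nutlin for 3 h (6 lists, called activated below), or 5 µM (+)-Nutlin, DMSO at 0.5 volumes per 1000 or water at 1 volume per 1000 for 3 h, or had been left untreated (12 lists, called unactivated).

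The transcription factor p53 binds short DNA motifs and turns on genes that arrest the cell cycle, trigger apoptosis or restrain p53 itself, such as Cdkn1a, Bbc3 and Mdm2. In unstressed cells Mdm2 keeps its level low, and Arf, induced by Myc, blocks Mdm2. The knock-in allele of this mouse model encodes p53 fused to the hormone-binding domain of an oestrogen receptor, so that the protein is held inactive until OHT is added. Tumours of this genotype therefore grow without p53 function, and OHT gives it back within hours.

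A peak here is a stretch of the genome listed by the authors as bound, given by chromosome, start and end in build mm9. The lists hold no score and no read count, so depth is unknown and a longer list can reflect more binding, deeper sequencing or both. The 7 input libraries were not analysed here, and the labels give those of the KI tumours the OHT treatment. No mm9 annotation or genome sequence was used here. Sites are therefore named by position, and known p53 target genes and the p53 motif were not analysed. Tumour 1 stood apart among the EtOH lists, and the mean values it moved most are also given without it.

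Peaks covered far more of the genome in cells with restored p53 than in EtOH cells. The OHT lists of tumours 1 to 4 covered 2149.9, 1832, 5350.1 and 4781 kb, against 23.1, 15.03, 68.6 and 32.7 kb in the EtOH lists of the same tumours. The lowest OHT list lay far above the highest EtOH list. Covered length averaged 3528 ± 1795 kb in OHT lists and 34.9 ± 23.6 kb in EtOH lists (SD, n = 4 each), a ratio of 107 between geometric means. The log2 ratio was 6.74, and two-sided exact permutation of the lists gave p = 0.0286, a floor set by 4 against 4 lists. The ratio was 93.0, 122, 78.0 and 146 in tumours 1 to 4. Exact sign changes within the 4 tumours gave p = 0.125, which is also the floor, and this held for all 6 measures compared in this way.

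Part of that ratio lies in peak width. With every peak set to 500 bp around its midpoint, the log2 ratio of covered length was 4.60 (exact permutation p = 0.0286), close to the log2 ratio of 4.48 in the number of peaks. Numbers of peaks were 4102, 3597, 10084 and 9738 in the OHT lists of tumours 1 to 4, against 116, 186, 742 and 367 in the EtOH lists. Among the OHT lists, those of tumours 3 and 4 held more than 2 times as many peaks as those of tumours 1 and 2, while tumour 1 had the shortest EtOH list.

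The 2 treatments gave peaks of different shape. The median peak measured 443, 456, 481 and 450.5 bp in the OHT lists of tumours 1 to 4, and 105.5, 68, 72 and 75 bp in the EtOH lists. Median width averaged 458 ± 16.5 bp in OHT lists and 80.1 ± 17.2 bp in EtOH lists (SD, n = 4 each), a difference of 377.5 bp (exact permutation p = 0.0286). All OHT lists were known to be wide and all EtOH lists narrow when the comparison was set up. That p was thus fixed at its floor in advance, and the width difference is a description. The narrowest OHT peaks measured 326, 352, 328 and 304 bp, so no OHT list held a peak under 200 bp, whereas 72.4%, 97.3%, 96.0% and 95.9% of EtOH peaks were under 200 bp. Peaks over 1000 bp made up 4.49%, 2.45%, 2.96% and 1.70% of the OHT lists. In the EtOH lists just tumour 1 held any, with 3 such peaks (2.59% of its list).

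**Figure D1:**
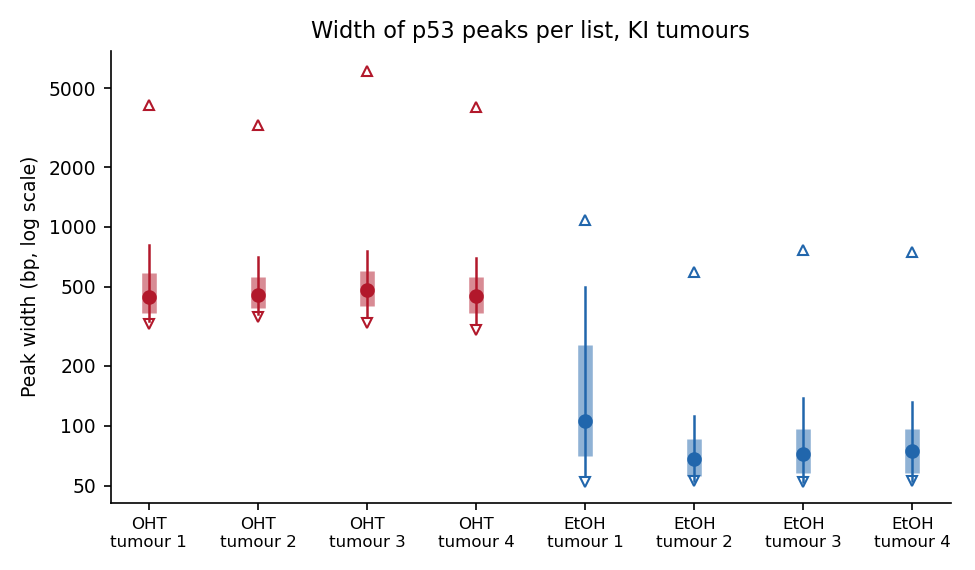
Width in bp (log axis) of the peaks in each list. The dot is the median, the thick bar runs from the 25th to the 75th percentile, the thin line runs from the 10th to the 90th percentile, and triangles mark the narrowest and widest peak. The 4 OHT lists have medians of 443 to 481 bp, and the 4 EtOH lists 68 to 105.5 bp, with tumour 1 reaching higher than the other EtOH lists.

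That difference in shape accompanies treatment in every KI tumour, so the way a list was made and the effect of OHT on width cannot be told apart. Among the Arf lists, the 8 unactivated ones of tumours 6 and 7 were also narrow, with medians of 93 to 111 bp. The 4 unactivated lists of tumour 5 were wide, and all 6 activated lists were wide as well, with medians of 417 to 552 bp. Against these 6, the OHT lists had a difference in median width of -32.5 bp (exact permutation p = 0.286). The 6 lists come from tumours 5 to 7, each with 1 list per drug. That permutation counts them as independent, which they are not. Against the 3 doxorubicin lists alone, at 498, 517 and 552 bp, the difference was -64.7 bp (exact permutation p = 0.0286), and against the 3 (-)-Nutlin lists it was -0.375 bp (p = 1 in the same exact test).

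Sites lay closer together in the longer OHT lists than in the EtOH lists. Peaks within 500 bp of each other were first joined into sites, which numbered 4048, 3559, 9898 and 9538 in the OHT lists, against 78, 167, 626 and 312 in the EtOH lists. The median gap between neighbouring sites was 173, 159, 56.3 and 57.4 kb in OHT lists, against 12379.9, 4957, 1159 and 2379 kb in EtOH lists, a log2 ratio of -5.21 (exact permutation p = 0.0286). When each OHT list was cut to its widest peaks, as many as in the EtOH list of the same tumour, the log2 ratio of the gaps was -0.36 with an exact permutation p of 0.714. With equal numbers of peaks a difference in spacing was thus not detectable. The cut did not equalise the numbers of joined sites, between which the gaps are measured.

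Short-range grouping ran the other way. The share of peaks with the next peak within 500 bp averaged 1.57% ± 0.46 in OHT lists and 18.4% ± 9.9 in EtOH lists (SD, n = 4 each), a difference of -16.8 percentage points (exact permutation p = 0.0286). This share also followed the kind of list. It was 29.5% to 37.9% in the 8 narrow unactivated Arf lists and 0.472% to 1.00% in the 4 wide unactivated lists of tumour 5, so kind of list and treatment cannot be told apart here either. Sites made of more than 1 peak were 1.26%, 1.01%, 1.82% and 2.05% of the OHT sites in tumours 1 to 4. In the EtOH lists they were 33.3%, 10.2%, 15.7% and 12.2%, with tumour 1 the highest. The region chr17:39979814-39985891, treated with caution below, held 9, 7, 14 and 19 EtOH peaks in tumours 1 to 4. It was kept in these shares, and they were not computed without it. Without tumour 1 the difference in close peaks was -11.96 percentage points, with an exact permutation p of 0.1, the floor for 3 against 3 lists.

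Peaks called in EtOH cells mostly overlapped, by at least 1 bp, a wide OHT peak of their tumour. Most of those that did had their midpoint more than 50 bp from that of the OHT peak. Of the EtOH peaks of tumours 1 to 4, 104 of 116, 156 of 186, 719 of 742 and 348 of 367 overlapped an OHT peak found in that tumour. The share under the tumour's own OHT list was 89.7%, 83.9%, 96.9% and 94.8%, and under the OHT lists of the other tumours it ran from 60.2% to 96.0%. In tumours 1 and 2 another tumour's longer OHT list covered more of the EtOH peaks than their own did, at 91.4% in tumour 1 and 95.7% in tumour 2. The median distance from the midpoint of the EtOH peak to that of the OHT peak was 191, 115.5, 116.5 and 120 bp. Within 50 bp of the OHT midpoint lay 11.5%, 18.6%, 19.2% and 16.4% of them. They fell to both sides, with 43, 67, 258 and 152 more than 50 bp before the midpoint and 49, 60, 323 and 139 more than 50 bp after it. OHT peaks of different tumours met more closely, with median distances of 32 to 46 bp over the 6 pairs of lists and 53.2% to 67.2% of overlapping pairs within 50 bp. EtOH peaks of different tumours had median distances of 27.75 to 53.5 bp over their 6 pairs. A narrow peak has more room within a wide one, so distances between the 2 kinds of list are not like for like with these. In OHT peaks under 800 bp, a restriction chosen after the data were seen, the distance between EtOH and OHT midpoints averaged 107 bp over the 4 tumours, against 136 bp in OHT peaks of any width. Without tumour 1 the mean over OHT peaks of any width was 117 bp. The 8 narrow Arf lists had median distances of 123.5 to 160.5 bp from the midpoints of activated peaks of their own tumour.

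**Figure D2:**
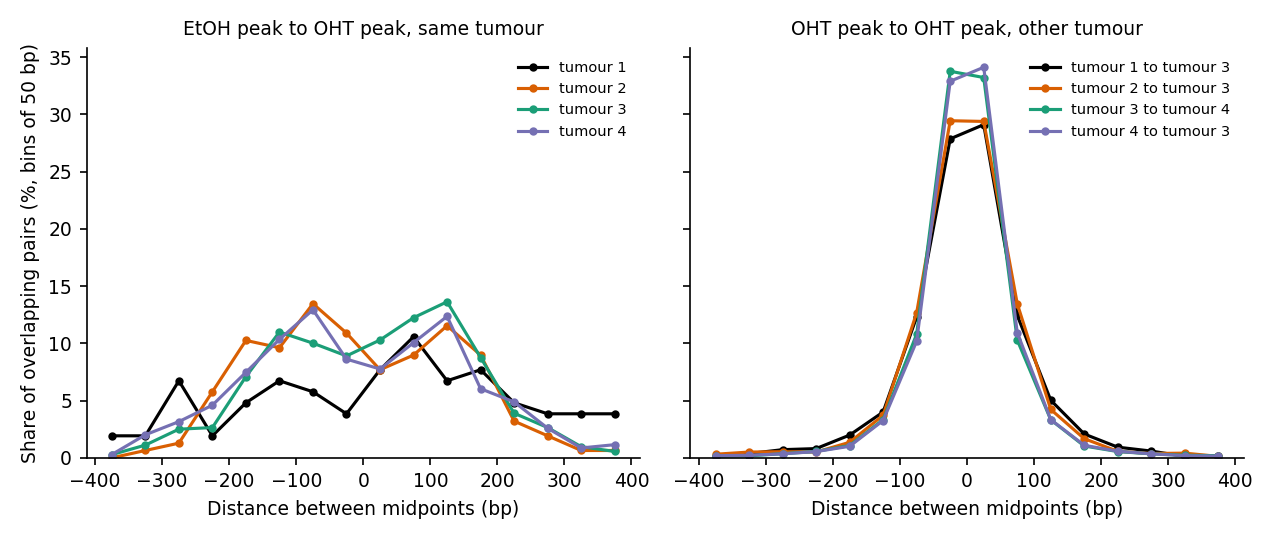
Distance in bp between the midpoints of overlapping peaks, as a share of all overlapping pairs in bins of 50 bp. At left, EtOH peaks against the OHT peak of the same tumour spread to both sides, with median distances of 115.5 to 191 bp; at right, OHT peaks against those of another tumour cluster at 0.

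Where an OHT peak held 2 EtOH peaks, these usually flanked its midpoint. This was so in 12 of 17, 13 of 16, 64 of 89 and 25 of 34 such peaks in tumours 1 to 4. Separate narrow peaks within 1 wide peak often lie on both sides of its midpoint through their spacing alone. The share to be had from spacing was not computed, so these counts show no preferred position. Most OHT peaks with any EtOH peak held just 1, namely 40 of 65, 118 of 135, 506 of 603 and 257 of 295.

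Sites also called in EtOH cells had wider OHT peaks than other sites in all 4 tumours, a difference that 4 tumours cannot bring past 0.05 in a paired exact test. OHT peaks over an EtOH peak of the same tumour had a median width of 1293, 541, 638 and 654 bp in tumours 1 to 4, against 440, 454, 475 and 447 bp for the other OHT peaks. The difference averaged 327.5 ± 354 bp (SD, n = 4), was positive in 4 of 4 tumours, and had an exact sign-change p of 0.125, the smallest that 4 tumours allow. Tumour 1 gave the largest of these, 853 bp, and without it the mean difference was 152 bp. In the widest 10% of each OHT list, 12.7%, 7.5%, 17.5% and 12.2% of peaks held an EtOH peak, against 0.146%, 2.33%, 2.08% and 0.760% in the narrower 50%.

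The EtOH list of tumour 1 stood apart from the other EtOH lists. It was the shortest, yet its upper widths were the largest, with a 90th percentile of 497 bp against 112, 138 and 132 bp in tumours 2 to 4. The narrow unactivated Arf lists had 90th percentiles of 473 to 565 bp. Of the tumour 1 EtOH peaks, 78.4% to 90.5% lay under a peak of each of the 12 unactivated Arf lists, with a median of 84.9%. For the EtOH peaks of tumours 2, 3 and 4 the medians were 28.2%, 16.2% and 21.9%, and the ranges 14.5% to 63.4%, 7.82% to 56.6% and 11.99% to 56.7%. Tumour 1 was above the others in the share under every unactivated list. This pattern was noticed in the data and is given without a test. Under the activated Arf lists, the medians were 92.2%, 93.3%, 92.7% and 90.7% for the EtOH peaks of tumours 1 to 4.

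**Figure D3:**
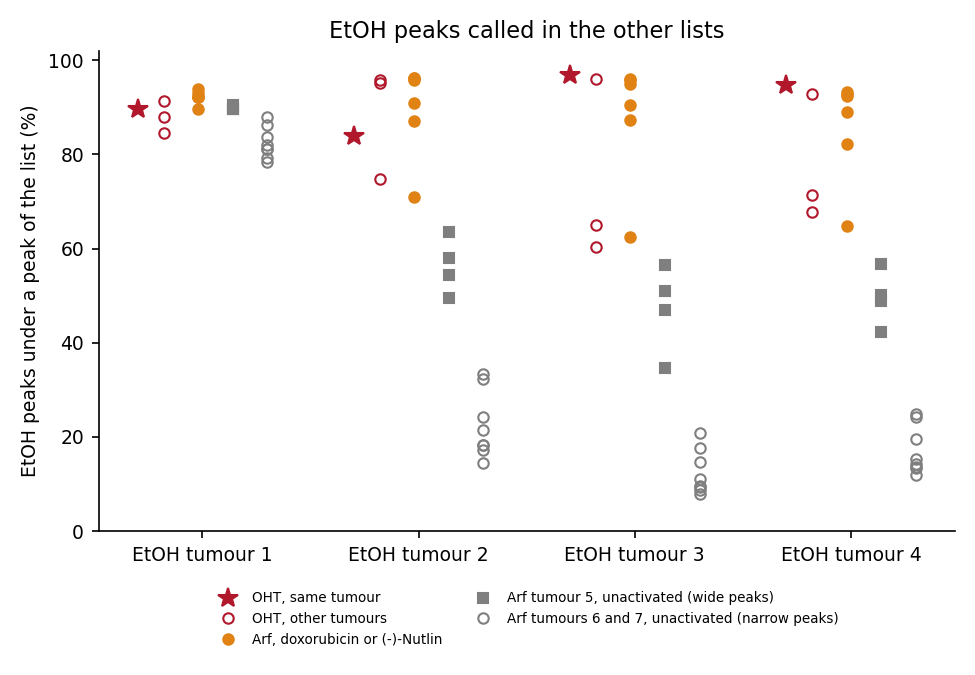
Share in percent (vertical axis) of the EtOH peaks of each KI tumour that lie under a peak of another list, 1 point per list, for OHT lists of the same (star) and other tumours and for the activated and unactivated Arf lists. In tumour 1 the unactivated Arf lists reach 78.4% to 90.5%, while in tumours 2 to 4 those of tumours 6 and 7 stay at 7.82% to 33.3%.

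Few positions were called in all EtOH lists. Merging the peaks of all 8 lists where they shared at least 1 bp gave 12799 regions, of which 11 had a peak in all 4 EtOH lists. Of those 11, 10 were also called in all 4 OHT lists and 9 in each of the 26 lists. At chr1:156902206-156904173, the OHT peaks of tumours 1 to 4 measured 1968, 1791, 1834 and 1288 bp and the EtOH peaks 1010, 596, 767 and 747 bp. This region held the widest EtOH peak of tumours 2, 3 and 4. It was the one region of the 11 with a single peak over 500 bp in every EtOH list.

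At 3 more regions found in all 26 lists, the OHT peaks were likewise wider than the EtOH coverage in every tumour. At chr7:16893459-16895642, OHT peaks measured 2184, 2045, 1394 and 1379 bp, and EtOH peaks covered 1022, 224, 755 and 339 bp. At chr8:4611244-4613753, the values were 2510, 1615, 1703 and 1530 bp in OHT lists and 876, 391, 548 and 377 bp in EtOH lists, there in 2 peaks per list. At chr19:44327917-44329957, OHT peaks measured 2026, 1769, 1635 and 1262 bp, and EtOH peaks covered 905, 204, 709 and 200 bp. In each of these 3 regions tumour 1 had the widest coverage among the OHT lists and among the EtOH lists.

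At 5 more of the 11, OHT coverage also exceeded EtOH coverage in every tumour. At chr2:75605655-75607020, OHT peaks measured 1332, 1228, 1061 and 1023 bp, and EtOH peaks covered 828, 191, 690 and 99 bp. At chr11:6426393-6429051, OHT peaks covered 2589, 2146, 2141 and 1862 bp, and EtOH peaks 547, 94, 193 and 253 bp. A second region, chr11:108872917-108873540, had OHT peaks of 624, 478, 551 and 553 bp and EtOH coverage of 140, 135, 370 and 320 bp. At chr8:124356073-124357065, OHT peaks measured 796, 892, 970 and 661 bp and EtOH peaks 264, 212, 378 and 280 bp. At both of these last regions tumour 3 had the widest EtOH coverage. At chr3:96066818-96067742, OHT peaks measured 492, 750, 782 and 922 bp and EtOH peaks covered 71, 54, 63 and 163 bp. That region had a peak in 6 of 6 activated and in 5 of 12 unactivated Arf lists.

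A pair of the 11 needs caution. The region at chr17:39979814-39985891 held the widest peak of each OHT list, at 4100, 3253, 6069 and 4015 bp, and was split into 9, 7, 14 and 19 peaks in the EtOH lists of tumours 1 to 4. Regions of repeats or high background were kept in these counts, and whether this stretch is a p53 site was not tested. The region at chr16:57391418-57392036 was called in all 4 EtOH lists, with 168, 63, 54 and 59 bp, but in the OHT list of tumour 1 alone, with 619 bp. It had a peak in 6 of 6 activated and 11 of 12 unactivated Arf lists.

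Sites called in EtOH cells and in no OHT list were rare. They numbered 35 of the 899 regions with any EtOH peak, measured 52 to 205 bp, and 29 of them were called in 1 EtOH list. The 6 in more than 1 EtOH list, singled out after their values were seen, included chr2:98502484-98502554 and chr2:98507220-98507307, each in 3 EtOH lists and in 10 and 11 of the 12 unactivated Arf lists. Another, at chr11:87256936-87257140, had 100, 113 and 87 bp in the EtOH lists of tumours 2, 3 and 4 and a peak in 2 activated Arf lists. The remaining ones, at chr1:172994685-172994765, chr13:97960505-97960560 and chr9:3025471-3025540, were each in 2 EtOH lists. Regions of repeats or high background were kept here too. Whether any of these 6 is a p53 site was not tested.

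Regions gained with OHT were those found in every OHT list without any EtOH peak. They numbered 1191, which is 9.31% of all 12799 regions, and 0 regions (0%) went the opposite way. The 2 counts are not like for like, since the EtOH lists are far shorter. Just 11 regions had a peak in all 4 EtOH lists, against 1627 in all 4 OHT lists, so at most 11 could have gone the opposite way. Fisher's exact test of presence, Benjamini-Hochberg adjusted over all regions, called 0 of them at 0.05 (0%), with a lowest adjusted p of 0.307. The 1191 gained regions have, by definition, an unadjusted p of 0.0286 in that test, the floor for 4 against 4 lists. A call would have needed most of the 12799 regions at this floor, so the test cannot decide on single regions. The count was 2201 without tumour 1 and 2030 without tumour 2, the lists that were shortest under OHT, and 407 with the wider 50% of each list. Setting all peaks to 500 bp gave 1190, and asking for 50% overlap gave 1207.

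The gained regions with the highest rank of width in the OHT lists ranged from 1393 to 2302 bp. The region at chr8:23543549-23545850 had OHT peaks of 2302, 1917, 2269 and 1315 bp in tumours 1 to 4, and a peak in all 18 Arf lists. At chr5:136645987-136648197, the peaks measured 1862, 1672, 2120 and 1733 bp, and at chr5:92390449-92392507 they measured 1932, 1359, 2059 and 1942 bp. Both regions on chromosome 5 were called in 6 of 6 activated Arf lists, and in 2 and 8 of the 12 unactivated ones. At chr10:61050514-61052769, the peaks measured 2256, 1652, 1838 and 839 bp, with tumour 4 the narrowest, and the region was again called in all 18 Arf lists.

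Further gained regions differed in how many unactivated lists held them. At chr3:58320414-58321808, OHT peaks measured 1200, 1193, 1299 and 1183 bp, close to one another in all 4 tumours. At chr16:20701498-20702919, they measured 1357, 1058, 1357 and 1053 bp. Those regions had a peak in 2 and 8 of the 12 unactivated Arf lists, and both in 6 of 6 activated ones. The gained regions at chr1:173480352-173481887 and at chr9:103352668-103354240 were called in all 18 Arf lists. Those at chr4:140239509-140240901 and at chr12:101590195-101591757 were in no unactivated list and in 6 and 4 of the 6 activated lists.

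Gained regions were spread widely, with a median gap of 567 kb between neighbours, and 65 of 1171 gaps were under 10 kb. The closest pair was chr1:130487373-130488260 and chr1:130488657-130489258, with 396 bp between them. The second pair, 520 bp apart, was chr9:103351337-103352147 and chr9:103352668-103354240. In that pair the longer region was called in all 12 unactivated Arf lists and its neighbour in none of them. The third pair, 611 bp apart, was chr8:26240803-26242079 and chr8:26242691-26244111, in 12 and 3 of the 12 unactivated lists.

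The densest stretches were found by counting regions called in all 4 OHT lists in windows of 1 Mb. The 1627 such regions fell into 798 windows, of which 415 held a single one and 59 held 5 or more. Most, 11, lay at chr10:59000001-60000000, where OHT lists had 20, 16, 27 and 22 peaks and EtOH lists 0, 0, 0 and 2. Next came chr8:74000001-75000000 with 10 regions, where OHT lists had 13, 13, 33 and 30 peaks and EtOH lists 0, 0, 5 and 2. Windows at chr10:79000001-80000000 and at chr17:29000001-30000000 held 9 regions each, and chr11:54000001-55000000 held 8. In these 5 windows the activated Arf lists held 7 to 45 peaks and the unactivated lists 0 to 10. Together the 5 windows held 2.89% of the 1627 regions.

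Chromosome shares varied less among the OHT lists than among the EtOH lists, which hold far fewer sites, and this was so on every chromosome. After joining peaks within 500 bp, OHT and EtOH shares did not overlap on 3 of 21 chromosomes (14.3%). In an exact permutation test 0 passed after Benjamini-Hochberg adjustment, with 3 at an unadjusted p of 0.0286. That p is the floor for 4 against 4 lists, and a call would have needed most chromosomes to reach it. On chromosome 10 the share was 5.21%, 4.92%, 4.88% and 5.15% in OHT lists of tumours 1 to 4, against 2.56%, 2.99%, 3.04% and 3.21% in EtOH lists. On chromosome 15 it was 4.15%, 4.05%, 3.95% and 4.15% in OHT lists, against 2.56%, 1.80%, 2.88% and 3.21% in EtOH lists. On chromosome 2 the means were 7.10% ± 0.34 in OHT lists and 4.89% ± 1.46 in EtOH lists (SD, n = 4 each). The EtOH shares rest on few sites, for instance 2 and 5 sites on chromosome 10 in tumours 1 and 2.

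Chromosome 5 set tumour 2 apart from the other tumours under both treatments. It held 10.1%, 5.96%, 8.51% and 7.88% of sites in the OHT lists of tumours 1 to 4, against 14.1%, 6.59%, 15.02% and 14.4% in the EtOH lists. Tumour 2 was the lowest under both treatments. In the 18 Arf lists the share ran from 5.82% to 7.33%. That range holds both shares of tumour 2, and tumours 1, 3 and 4 lay above it under both treatments. Chromosome 3 was highest in tumour 2, with 7.19% of its OHT sites and 13.8% of its EtOH sites. In tumours 1, 3 and 4 it held 4.99%, 5.16% and 5.18% of the OHT sites, against 5.13%, 8.47% and 8.97% of the EtOH sites. The 18 Arf lists had 3.93% to 8.05%, a range that holds the OHT share of tumour 2. The 6 activated lists among them, wide like the OHT lists, had 4.28% to 6.60%, all below that share. These patterns were noticed in the data and are given without a test. Their cause was not tested.

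**Figure D4:**
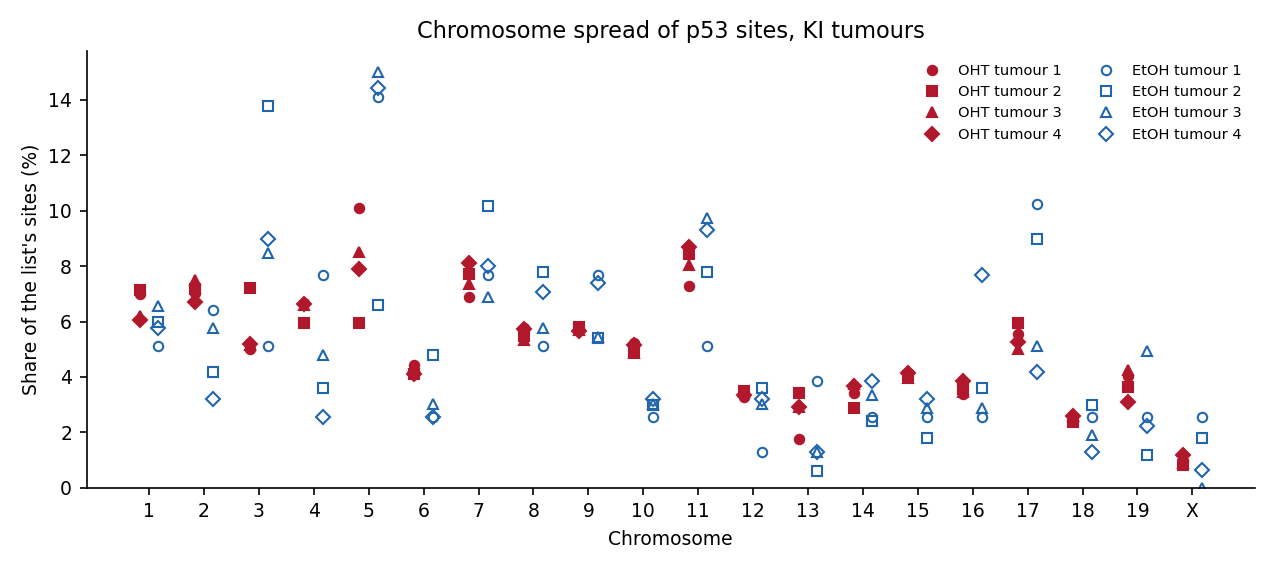
Share in percent of each list's sites, after joining peaks within 500 bp, on each autosome and X, with 1 symbol per list. OHT (filled) and EtOH (open) lists do not overlap on chromosomes 2, 10 and 15, and chromosome 5 is high in tumours 1, 3 and 4 under both treatments.

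The OHT lists of different tumours shared a core and each added sites of its own. Of 12764 regions with an OHT peak, 3767 were called in 1 OHT list, 5014 in 2, 2356 in 3 and 1627 in all 4. The last count was 2755 without the OHT list of tumour 1 and 2532 without that of tumour 2, choices made after the data were seen. The largest single set beyond the core was shared by tumours 3 and 4 alone, with 4298 regions (33.7%), and these were the longest lists. The highest share between 2 lists was that of tumour 2, with 88.0% of its peaks under a peak of tumour 3, and 31.3% of the peaks of tumour 3 lay under one of tumour 2. Tumours 3 and 4 shared 79.2% and 82.3% of their peaks with each other. For tumours 1 and 2, close to each other in list length, the shares were 52.0% and 59.6%. These shares depend on the lengths of the lists compared.

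At the shared core the peak midpoints of the tumours lay close together. In the 1576 regions with exactly 1 peak in each OHT list, the 4 midpoints spanned a median of 84 bp, and at most 100 bp in 61.8% of regions. Widths were less alike. Across those 1576 regions the rank correlation of peak width, a description across sites and not across replicates, ran from 0.09 between tumours 1 and 4 to 0.61 between tumours 1 and 2. All 6 pairs share the same regions, and read depth is unknown.

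The likeness of peak widths to those of the Arf lists differed between OHT lists, described here across sites that share their libraries. Across the 1086 regions called in all OHT and all activated lists, the rank correlation of width with the 6 activated lists had a median of 0.65 for tumour 1, 0.52 for tumour 2, 0.57 for tumour 3 and 0.14 for tumour 4. For tumour 4 it ran from -0.067 to 0.27, below the lowest value of 0.44 in the other 3 tumours. In the widest 10% of each OHT list, 43.8%, 32.2%, 13.6% and 4.83% of peaks in tumours 1 to 4 were also called in all 12 unactivated Arf lists. That 10% is 411, 360, 1009 and 974 peaks, so these shares also depend on list length. The same peaks were called in all 6 activated lists in 84.4%, 80.8%, 59.2% and 51.0% of cases. The narrowest 10% were called in all 6 activated lists in 30.0%, 30.1%, 5.46% and 4.32% of cases.

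Regions called in more OHT lists had a peak in a larger share of cases in the Arf lists, which come from 3 tumours. In the 6 activated lists, regions of a single OHT list had a peak in a median of 32.8% of cases (14.04% to 40.2%), those of 2 lists in 63.6%, those of 3 in 82.0% and those of all 4 in 94.7% (77.4% to 97.6%). In the 12 unactivated lists the medians were 2.27%, 4.11%, 8.38% and 26.4%. Regions with no peak in any Arf list numbered 1408 of 3767, 370 of 5014, 45 of 2356 and 2 of 1627. Regions of tumour 1 alone, 654 in number, had a peak in at least 1 activated list in 83.2% of cases, against 65.7%, 54.8% and 60.5% for those of tumours 2, 3 and 4 alone. An EtOH peak was present in 0.29%, 3.21%, 10.9% and 26.8% of regions called in 1, 2, 3 and 4 OHT lists. Median region length rose as well, at 382, 500, 611.5 and 749 bp. Since 1 shared bp counts as presence, longer regions had more room for a peak, and the part of length was not tested.

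**Figure D5:**
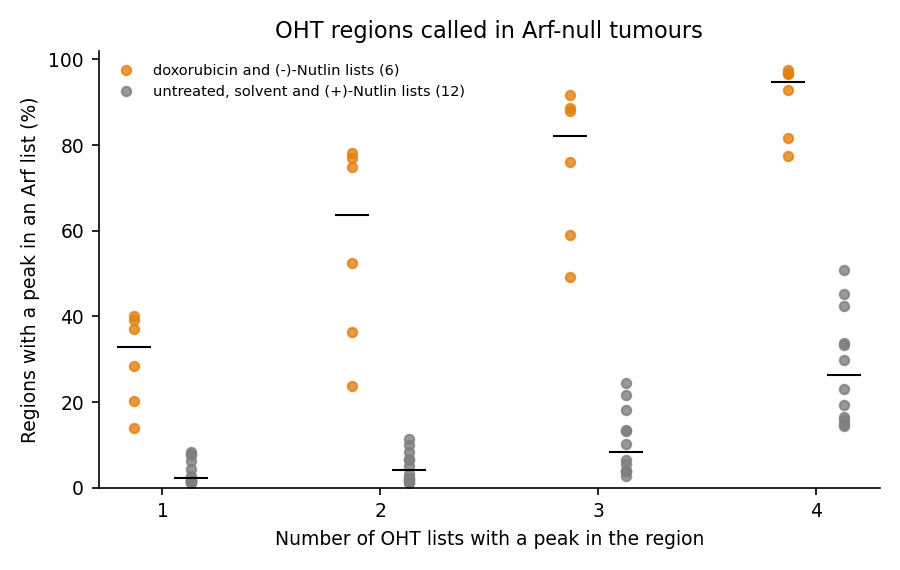
Share in percent of OHT regions that have a peak in each Arf list, by the number of OHT lists with a peak in the region. Points are lists and black bars medians; the medians run from 32.8% to 94.7% in the 6 activated lists and from 2.27% to 26.4% in the 12 unactivated lists.

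Within the core, regions with an EtOH peak and gained ones are set side by side here without a test. Of 436 core regions with an EtOH peak, 90.1% were called in at least 1 of the 12 unactivated Arf lists, against 58.8% of the 1191 gained regions. In all 12 unactivated lists the shares were 11.5% for core regions with an EtOH peak and 12.7% for gained regions, the opposite order. In all 6 activated lists they were 79.1% for core regions with an EtOH peak and 62.2% for gained regions. Median OHT coverage in tumour 4 was 658 bp for core regions with an EtOH peak and 525 bp for gained ones, and in tumour 3 it was 711 and 641 bp. In tumour 1 the order was the opposite, with 437 and 478 bp, and in tumour 2 the values were 513 and 509 bp.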

How the data were processed

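Reads had been aligned with BWA 0.6.2 to build mm9 and handled with SAMtools, per the submitters' processing notes. How peaks were called, at what threshold and with which inputs is not given in the sources used here. Each library has 1 deposited list of the authors' peaks, with a chromosome, a start and an end in base pairs, used whole and printed counted from 1. Groups and tumour numbers were taken from the sample titles. The tumour number pairs the lists, since each number has its own input library. As a check, the deviations of presence from the group means over 899 regions correlated between same-numbered OHT and EtOH lists at -0.044 to 0.21, and 3 of 4 EtOH lists correlated best with the OHT list of their own number.

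No 2 KI lists were identical. Peaks sharing at least 1 bp were merged into regions, and peaks within 500 bp were joined into sites. Single values were compared by two-sided exact permutation over lists on the log2 scale (numbers, lengths, gaps) or unchanged (widths, shares), and by exact sign changes within tumours. Whether the tumours are separate animals is not stated, so p-values measure the spread between these samples. The members, measures and named regions were chosen with earlier results of these data known. Added after the lists were seen were the limit of 800 bp on OHT peaks, leaving out lists from the recurrence counts and from the midpoint distances, recurrence with peaks of 500 bp, the paired test of presence per region, and 2 alternatives for EtOH peaks under unactivated lists. Named were all regions in 4 EtOH lists, the 10 gained regions with the highest mean percentile of OHT width, the 5 densest windows of 1 Mb, the widest peak per list and the 3 closest pairs of gained regions. Python 3.11.15, NumPy 2.4.6, pandas 2.3.3 and SciPy 1.17.1 were used, and the code was tested on simulated lists. The comparison of gene loci within distances of peaks and the motif search, planned for an mm9 annotation and genome, were not run.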

Additional observations from a re-analysis of the deposited data

Results flagged for a closer look

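Among the 64 measures checked in groups of 4 lists, 7 had 1 list far from the other 3. The rule flags about 1 in 20 by chance for a single normal measure. Many of these measures depend on one another, so the 7 cannot be read against that rate. For tumour 1, the EtOH list had 2.59% of its peaks over 1000 bp, against 0 in the other 3, and a 90th percentile of width of 497 bp. In the same tumour, the median distance of EtOH midpoints from OHT midpoints was 191 bp, and OHT peaks over an EtOH peak exceeded the others by 853 bp. Tumour 2 was apart by chromosome, with 7.19% of its OHT sites on chromosome 3 (highest), 5.93% on chromosome 4 (lowest), and 6.59% of its EtOH sites on chromosome 5 (lowest). The causes were not tested.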

How the results depend on the processing

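Without depth or scores, a missing peak may be an undetected one, and OHT and EtOH lists differ in kind. Differences of OHT minus EtOH kept their direction under all alternatives run. With the replicate block (tumours paired) the exact p was 0.125 throughout, for log2 ratios of 4.48 (peaks), 6.74 (covered length), 4.76 (sites) and -5.21 (gap), and differences of 377.5 bp (width) and -16.8 points (close peaks). For chromosomes and, in a paired test added later, for presence per region, pairing could give no call, since 0.125 is the lowest p. Leaving out each tumour gave 4.26 to 4.72, 6.58 to 6.89, 4.44 to 5.02, -5.50 to -4.90, 367 to 391 bp and -19.4 to -11.96 points, all at p = 0.1 by exact permutation, the floor for 3 against 3 lists. For width these p-values were fixed in advance, since the kind of each list was known. The log2 ratio of the gap was -0.36 with equal numbers of peaks, though not of sites. Gained regions numbered 1370 to 2201 without 1 tumour, 407 in the wider 50%, 3791 with 1 dissenting list allowed per treatment and 553 with OHT lists cut to the shortest. Regions in all OHT lists numbered 1642 to 2755 without 1 list. Against doxorubicin lists alone the width difference was -64.7 bp (p = 0.0286, exact permutation). Against all activated lists, the log2 ratio of peak numbers was -0.56 (exact permutation p = 0.186), and -0.79 to -0.30 without 1 OHT list. Without tumour 3 (-0.79) or 4 (-0.78) the exact permutation p was 0.0476. Tests against all activated lists count the doxorubicin and (-)-Nutlin lists of 1 Arf tumour as independent. They are not, so no conclusion is drawn from that p. The excess of tumour 1 EtOH peaks under unactivated lists, 62.8 points over the mean of the other tumours, was 62.6 for joined sites and 66.5 with the lists of tumours 6 and 7 alone. A chromosome call needs most chromosomes at the floor of 4 against 4 lists, and calls were 0 with shares of peaks and of bp. There 5 and 6 chromosomes had an unadjusted exact p under 0.05. Pairing or leaving out a tumour could not reach that threshold, so their 0 calls say nothing on stability. Known target loci at other distances were not run.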

Other observations

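Position along chromosomes 3 and 5 was examined in segments of 50 Mb. On chromosome 5 from 100 to 150 Mb lay 5.73%, 3.62%, 5.13% and 4.89% of the OHT sites of tumours 1 to 4, and 10.3%, 2.99%, 9.74% and 8.97% of the EtOH sites. The activated Arf lists had 2.89% to 3.87% there and the unactivated ones 2.73% to 3.37%. On chromosome 3 from 50 to 100 Mb, tumour 2 had 4.41% of its OHT sites and 10.8% of its EtOH sites, against 2.15% to 2.59% of OHT sites in the other 3 tumours. In that segment the activated Arf lists had 1.88% to 2.63% and the unactivated ones 1.75% to 3.59%. On chromosome 13 the OHT list of tumour 1 held 1.75% of its sites, against 2.90% to 3.43% in the other OHT lists and 3.81% to 4.35% in the activated Arf lists. No explanation of these values was tested.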
